A study of Mus musculus with 7 samples.

Results

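The MYC network is a family of basic helix-loop-helix leucine zipper transcription factors that share one dimerisation partner. Its members were taken by gene name: Myc, Mycn, Mycl, Max, Mxd1, Mxd3, Mxd4, Mxi1 and Mnt, which are 9 of the 16138 genes in the expression tables. All 9 were listed, and all 9 had at least 1 TPM in at least 3 libraries, the minimum for a test. TPM is a share of all transcripts of a library, corrected for transcript length. The libraries come from E17.5 retinas of ICR mice, an outbred stock, after 2 days of explant culture. Control explants were electroporated with a control plasmid (n = 3 libraries) and shKmt2f explants with a knockdown plasmid for the histone H3 lysine 4 methyltransferase gene Setd1a, also named Kmt2f (n = 4 libraries). A plasmid for EGFP was given to both groups, and only sorted EGFP-positive cells were measured, so each library is a mixture of the retinal cell types that took up DNA. Whether the libraries of one group are separate animals or cultures is not given, and a p-value here weighs a difference only against the spread of these libraries, part of which may be technical.

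MYC, MYCN and MYCL bind MAX, and these pairs bind E-box DNA and activate genes of growth, ribosome production and the cell cycle. MXD1, MXI1, MXD3, MXD4 and MNT bind the same partner and the same DNA but recruit SIN3 and histone deacetylases, and so repress. In the developing retina, Mycn is known as the MYC gene of dividing progenitors, Mycl is expressed beside it, and Mxd3 is known from other tissues as the MXD gene of cells that still divide.

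The levels of 3 MXD-type repressors carry most of the results below, so the starts of their coding sequences are shown first. The lines give the first 90 coding bases of each transcript from the GENCODE M21 annotation of GRCm38, 5′ to 3′. Capitals mark the 18-base, in-frame stretch that is most alike in the first 4 of them, CTGNTGNAGGCNGCNGAN, with N where they differ. It lies in the part of the MXD coding sequence that encodes the contact with SIN3. The pattern was made from these sequences and is a description of them.
Mxd1-201: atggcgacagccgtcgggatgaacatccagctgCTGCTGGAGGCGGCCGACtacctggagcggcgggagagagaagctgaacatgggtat
Mxd3-201: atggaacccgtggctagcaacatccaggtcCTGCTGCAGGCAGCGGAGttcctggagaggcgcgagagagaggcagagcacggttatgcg
Mxd4-201: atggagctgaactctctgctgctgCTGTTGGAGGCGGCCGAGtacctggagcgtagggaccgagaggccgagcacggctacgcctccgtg
Mxi1-203: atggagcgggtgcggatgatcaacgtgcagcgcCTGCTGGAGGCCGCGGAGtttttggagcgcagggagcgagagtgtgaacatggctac
Mxi1-201: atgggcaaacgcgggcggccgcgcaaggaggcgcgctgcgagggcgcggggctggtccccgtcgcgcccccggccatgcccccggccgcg
Mxi1-202: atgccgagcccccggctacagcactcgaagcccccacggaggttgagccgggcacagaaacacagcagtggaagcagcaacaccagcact

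The pattern is held by 36 of 58797 annotated protein-coding transcripts (0.0612%), searched over their whole length on the transcript strand. Over the 90 bases, aligned with gaps, Mxd1-201 and Mxd3-201 were identical at 74.4% of positions. Mxi1-201 and Mxi1-202 did not hold these letters anywhere in their coding sequences. The 3 Mxi1 transcripts thus start differently, and their levels are given one by one below. For Mxi1, the transcript versions in the deposited tables are earlier than those of the annotation used for these sequences.

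Short stretches around or upstream of the start of 4 members hold binding-site letters of the network or of E2F, the cell cycle factor, and are shown to place the genes in the genome. RefSeq windows of GRCm38.p6, from 250 bases before to 50 bases after the start, were found for 8 of the 9 members, and Myc was not among them. The windows were searched on both strands for the E-box CACGTG and for the E2F forms TTTGGCGC and TTTCCCGC. Capitals mark the match.
Max, chr12:76962236-76962261, minus strand: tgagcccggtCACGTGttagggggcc
Mnt, chr11:74830791-74830816, plus strand: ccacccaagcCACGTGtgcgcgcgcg
Mxd4, chr5:34187914-34187939, minus strand: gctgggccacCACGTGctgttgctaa
Mycn, chr12:12941987-12942029, minus strand: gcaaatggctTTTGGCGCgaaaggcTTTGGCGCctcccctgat

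The E-box was in 7.15% of 32851 such windows and either E2F form in 1.56%. The windows of Mycl, Mxd1, Mxd3 and Mxi1 held neither. The E-box of Max begins 3 bases before the start and runs across it, and the other matches lie upstream. These matches are letters in a window and no measure of binding.

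The targeted gene was checked first. The longest listed Setd1a transcript, of 6487 bases, averaged 0.830 ± 0.112 TPM in controls and 0.385 ± 0.0451 TPM after knockdown (SD, n = 3 and n = 4), or 46.4% of control. The groups did not overlap, but it stayed under 1 TPM in every library and was not tested here. The authors' own comparison gives it an effect of -0.849 on a natural log scale and a q-value of 1.74e-05. The Setd1a transcript with the highest TPM, of 315 bases, stood at 4.92 ± 1.46 and 3.65 ± 1.41 TPM, with overlapping ranges. Summed over all its transcripts, Setd1a did not pass the test (log2 difference -0.33, limma adjusted p = 0.365). In the alternatives this sum ran from -0.78 with a length-weighted sum, the one of 17 that called it (limma adjusted p = 0.0223), to 0.0012 with the GC and length correction (0.998). Each library had between 11837 and 12314 genes at 1 TPM or more. Sequencing depth is unknown, since TPM does not keep it, and counting intervals are therefore not given. Differences are given on the log2(TPM + 1) scale, shKmt2f minus control, with limma's test adjusted by Benjamini-Hochberg over all 12452 genes tested and a threshold of 0.05. On this scale, differences of genes at a few TPM come out too small.

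Of the 9 members, 1 rose and 1 fell. Mxd3 fell to 37.3% of its control level and Mxd1 rose 1.62-fold, while the 3 MYC genes, Max, Mxi1, Mxd4 and Mnt did not pass. Over all genes tested, 14.1% were called, 10.4% higher and 3.69% lower in shKmt2f. The higher genes were 73.8% of all calls, against 56.6% under median-ratio scaling, which lowers the median difference of all genes by 0.11 (log2), from 0.09 to -0.02. The median difference of the 9 members was 0.03. The levels of the 2 groups did not overlap for 4 members (Mxd1, Mxi1, Mxd3 and Mxd4), and this was so for 28.9% of all genes tested. In bulk libraries such as these, fewer cells of a type and less RNA per cell cannot be told apart.

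**Figure D1:**
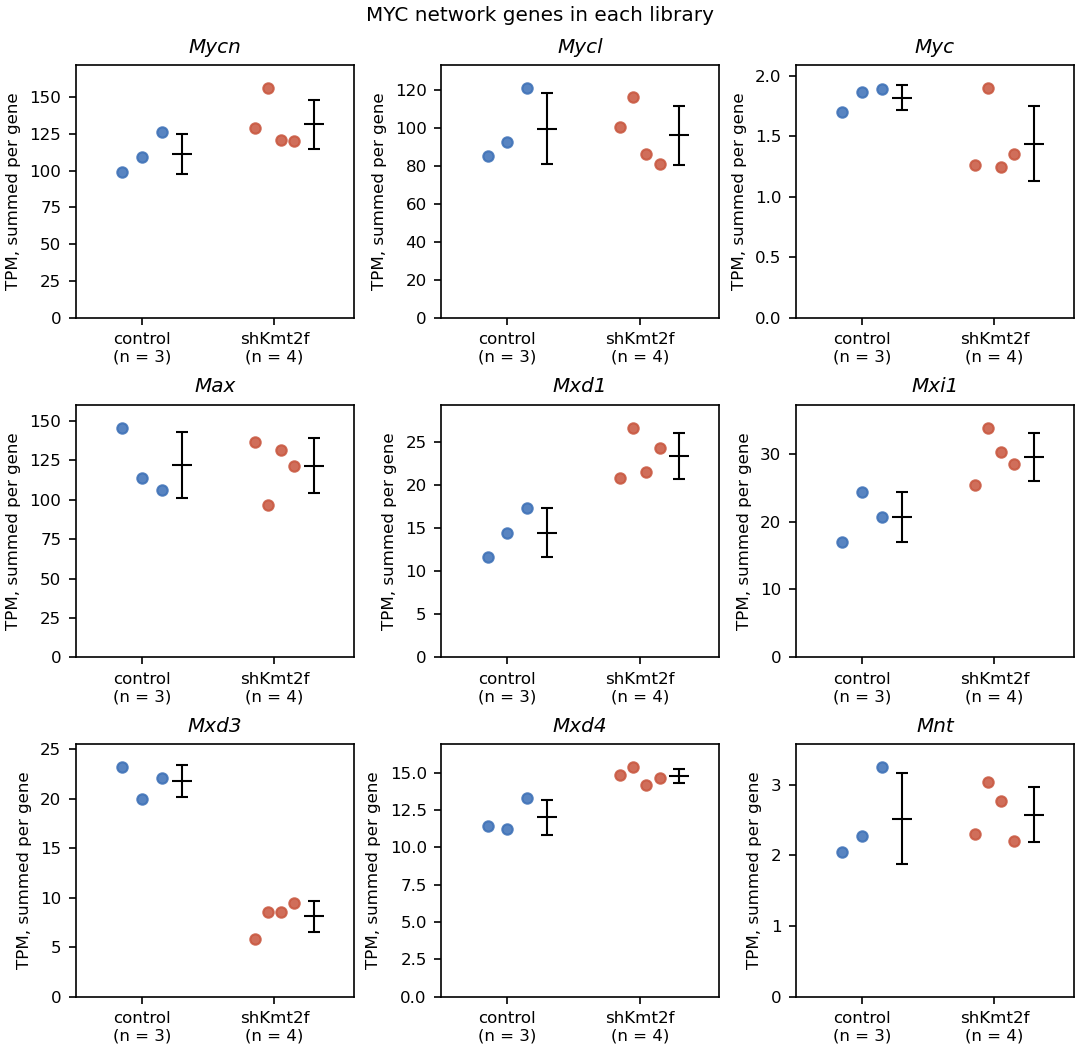
TPM summed per gene (vertical axis, each panel with its own scale) for the 9 members in the 3 control and 4 shKmt2f libraries; points are libraries and black bars the mean ± SD. The 4 shKmt2f libraries lie below all controls for Mxd3 (8.12 against 21.7 TPM on average) and above all controls for Mxd1, Mxi1 and Mxd4.

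Mxd3 (ENSMUSG00000021485, chromosome 13, 55325168 to 55329823, minus strand of GRCm38) stood at 23.2, 19.99 and 22.1 TPM in control libraries 1 to 3 and at 5.87, 8.59, 8.52 and 9.48 TPM in shKmt2f libraries 1 to 4. The highest shKmt2f library was under the lowest control. The mean went from 21.7 ± 1.61 TPM (SD, n = 3) to 8.12 ± 1.56 TPM (SD, n = 4), or 37.3% of control. The log2 difference was -1.33 (SE 0.17, 95% interval -1.72 to -0.94, limma adjusted p = 0.0084). It passed the threshold in 17 of 17 alternative analyses, with log2 differences from -1.45 to -0.99.

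Both main Mxd3 transcripts were lower. Mxd3-201, the coding transcript shown above (1327 bases, 6 exons), stood at 13.3, 12.2 and 12.9 TPM in the controls and at 3.74, 6.76, 6.62 and 7.22 TPM in the shKmt2f libraries, so the groups did not overlap. Its log2 difference of -0.99 (SE 0.21) missed the threshold over all 37024 transcripts tested (limma adjusted p = 0.0539), while the authors' deposited table gives it an effect of -0.857 on a natural log scale and a q-value of 0.000647. Mxd3-202, a processed transcript of 683 bases with no annotated coding sequence, stood at 8.88, 7.09 and 7.53 TPM in the controls and at 2.11, 1.64, 1.45 and 1.36 TPM in the shKmt2f libraries. That is a fall to 20.9% of control (log2 difference -1.75, SE 0.17, limma adjusted p = 0.0089), called in 14 of 15 alternatives. In the authors' deposited table its q-value is 0.294 and its effect is -1.65.

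The coding Mxd3-201 made up 58.9% ± 1.96 of the Mxd3 sum in controls and 74.0% ± 7.01 in shKmt2f libraries (SD, n = 3 and n = 4). The values did not overlap, though shKmt2f library 1 (63.6%) lay near the highest control (61.1%), and the exact two-sided permutation test over the 35 splits gave p = 0.0571, where 0.0286 is the smallest it can give. Of the 30 transcripts of members in the tables, 25 could be tested, of which Mxi1-202 rose and Mxd3-202 fell. Among all transcripts tested, 1.44% were called higher and 0.794% lower. Groups did not overlap for 5 of the 25, against 21.6% of all transcripts. Authors' q-values under 0.05 in the deposited table were held by 2 transcripts of members, Mxd3-201 and Mxi1-202, and by 5.52% of all transcripts listed.

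The last 105 bases of the Mxd3 gene (chr13:55325168-55325272) lie under Prelid1, a mitochondrial lipid transfer gene of the opposite strand. Prelid1 stood at 140.8 ± 8.90 TPM in controls and 110.2 ± 2.24 TPM in shKmt2f libraries and fell too (log2 difference -0.35, limma adjusted p = 0.0397). Its call held in 6 of 17 alternatives, with log2 differences from -0.47 to -0.079, the smallest with the GC and length correction (limma adjusted p = 0.662). Mxd3-202 ends at 55325712, outside the shared bases, and was lower as described. The part of this overlap in the difference of Mxd3 was not tested. Whether the libraries keep strand is not given in the sources used here.

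Mxd1 (ENSMUSG00000001156, chromosome 6, 86647042 to 86669161, minus strand), the repressor of MYC-driven growth in differentiating cells, stood at 11.6, 14.4 and 17.3 TPM in the controls and at 20.8, 26.6, 21.5 and 24.3 TPM in the shKmt2f libraries. Every shKmt2f library was above every control. The mean rose 1.62-fold, from 14.4 ± 2.85 to 23.3 ± 2.68 TPM (SD, n = 3 and n = 4; log2 difference 0.67, SE 0.16, 95% interval 0.30 to 1.04, limma adjusted p = 0.0350). The difference stayed between 0.42 and 0.80 in the alternatives but passed in only 9 of 17. Of the 8 alternatives that lost it, 7 left out a library or used another sum: those without control library 1 (limma adjusted p = 0.105), control library 3 (0.0504) or any one of the shKmt2f libraries 1 to 4 (0.0770, 0.0893, 0.0665 and 0.0827), and the one with a length-weighted sum (0.0655). With the replicate number as a block it was lost as well (0.0682).

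No single Mxd1 transcript passed. The full-length coding Mxd1-201 (4666 bases) stood at 7.86 ± 1.63 and 11.4 ± 2.34 TPM (log2 difference 0.48, limma adjusted p = 0.194), and its control and shKmt2f ranges overlapped. Mxd1-202, of 418 bases, stood at 1.48, 2.97 and 2.51 TPM in the controls and at 3.09, 6.84, 6.74 and 8.97 TPM in the shKmt2f libraries (log2 difference 1.11, SE 0.32, limma adjusted p = 0.0906). Mxd1-204, which retains an intron, stood at 4.24 ± 0.863 and 5.52 ± 0.148 TPM (limma adjusted p = 0.269). The sum of protein-coding transcripts only, which leaves out Mxd1-204, was called for the gene (log2 difference 0.75, limma adjusted p = 0.0245).

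**Figure D2:**
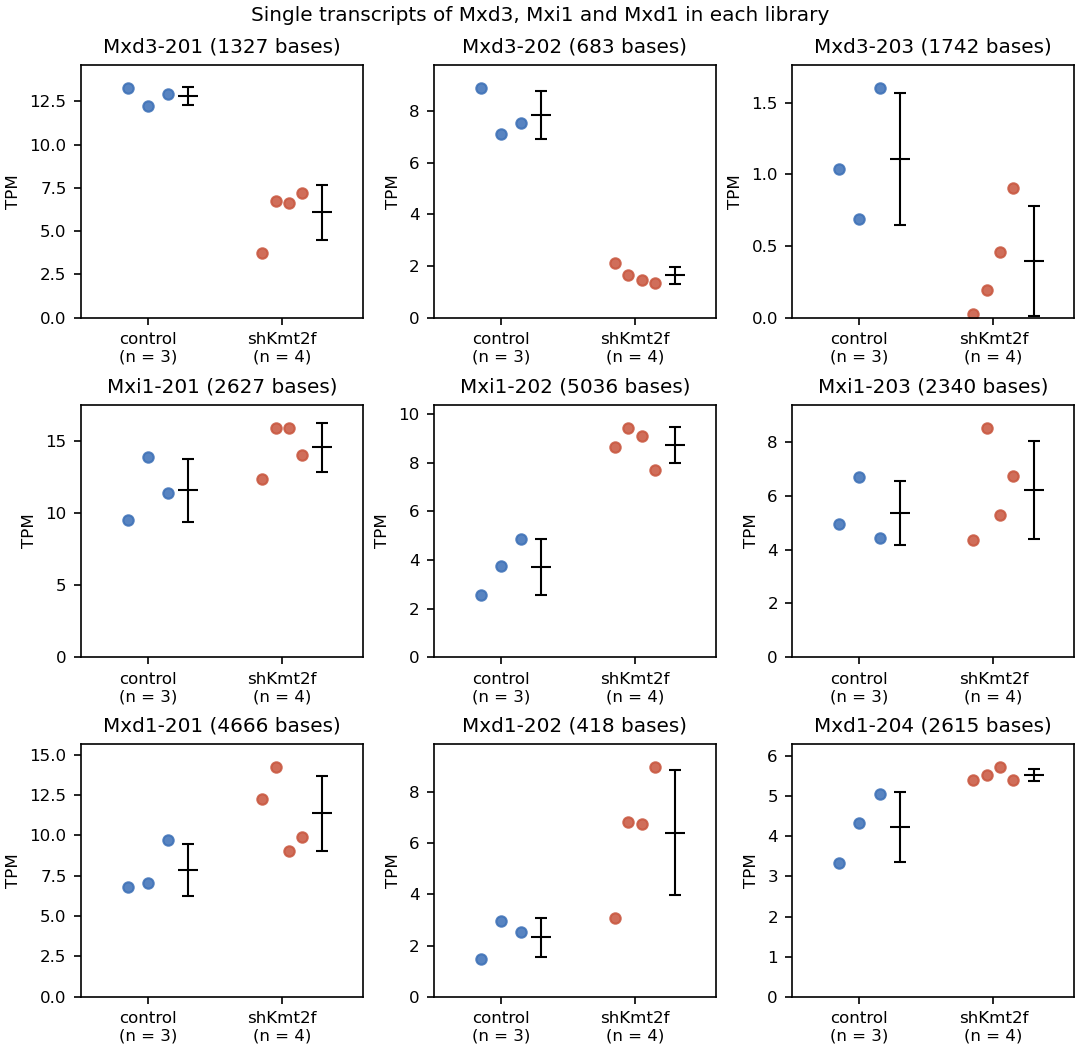
TPM (vertical axis, each panel with its own scale) of single transcripts of Mxd3, Mxi1 and Mxd1 in each library; points are libraries and black bars the mean ± SD. Mxi1-202 lies at 7.71 to 9.43 TPM in shKmt2f libraries and at 2.56 to 4.85 TPM in controls, while the ranges of Mxi1-203 overlap.

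Mxi1 (ENSMUSG00000025025, chromosome 19, 53310518 to 53375810, plus strand), which encodes an MXD-type repressor, stood at 17.0, 24.4 and 20.6 TPM in the controls and at 25.4, 33.8, 30.3 and 28.5 TPM in the shKmt2f libraries. The groups did not overlap, but control library 2 and shKmt2f library 1 lay close together. The mean was 20.7 ± 3.67 against 29.5 ± 3.54 TPM (log2 difference 0.50, SE 0.16, 95% interval 0.14 to 0.86), and limma's adjusted p of 0.0645 missed the threshold. It passed in 3 of 17 alternatives: without control library 2 (0.0236), with protein-coding transcripts only (0.0496) and with a length-weighted sum (0.0226).

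Within Mxi1, one of its 3 listed transcripts was called. Mxi1-202, whose coding start does not hold the capitals shown above, stood at 2.56, 3.76 and 4.85 TPM in the controls and at 8.64, 9.43, 9.11 and 7.71 TPM in the shKmt2f libraries. The lowest shKmt2f library was well above the highest control. Its mean rose 2.34-fold, from 3.72 ± 1.145 to 8.72 ± 0.751 TPM (log2 difference 1.07, SE 0.19, 95% interval 0.62 to 1.52, limma adjusted p = 0.0430). The authors' deposited table gives it an effect of 0.799 and a q-value of 0.00011. The limma call held in 3 of 15 alternatives (adjusted p from 0.0251 to 0.121), with log2 differences from 0.83 to 1.25. Of the 7 analyses that leave out a library, it held in the one without control library 2 (0.0251) and was lost in the other six.

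The other 2 Mxi1 transcripts did not pass. Mxi1-203, with the capitals, starts at 53329413, close to the start of Mxi1-202 at 53329458, and stood at 5.37 ± 1.20 and 6.21 ± 1.83 TPM (log2 difference 0.16, limma adjusted p = 0.729). Mxi1-201 starts upstream at 53310518 and stood at 11.6 ± 2.21 and 14.6 ± 1.69 TPM (log2 difference 0.32, limma adjusted p = 0.288). Mxi1-202 took 17.99% ± 4.77 of the Mxi1 sum in controls and 29.8% ± 3.12 in shKmt2f libraries, and the exact two-sided permutation test of this share gave p = 0.0286, the smallest it can give. The transcript was singled out by its call in these same libraries, so this p-value is no separate support. How often such shares separate the groups over all transcripts was not computed.

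Mxi1-202 is also the longest of the 3, at 5036 bases, of which 4077 follow the coding sequence, and it ends 2517 bases past Mxi1-201. The longest transcripts were higher in shKmt2f as a class: those over 2959 bases, the longest of 5 equal classes, had a median log2 difference of 0.25. The shorter classes, from long to short, stood at 0.09, -0.005, 0.06 and 0.03. With a correction for GC content and length, the log2 difference of Mxi1-202 was 0.83 and its limma adjusted p 0.0507.

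Mxd4 (ENSMUSG00000037235), an MXD repressor known from differentiating cells, stood at 11.4, 11.2 and 13.3 TPM in the controls and at 14.8, 15.4, 14.2 and 14.6 TPM in the shKmt2f libraries. The groups did not overlap, but the difference was small (11.998 ± 1.151 against 14.8 ± 0.481 TPM, log2 difference 0.28, SE 0.13, limma adjusted p = 0.161). It passed only with the GC correction (0.49, adjusted p = 0.0378) and the GC and length correction (0.38, adjusted p = 0.0354). Mnt (ENSMUSG00000000282), the broadly expressed repressor of the network, was low, at 2.05, 2.27 and 3.25 TPM in the controls and 2.30, 3.03, 2.77 and 2.20 TPM in the shKmt2f libraries. The groups overlapped (log2 difference 0.03, SE 0.17, limma adjusted p = 0.924), and the sign turned under median-ratio scaling (-0.06).

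The order of the repressors by TPM summed over all listed transcripts differed between the groups. The sums of Mxd3, Mxd1 and Mxd4 include transcripts with no annotated coding sequence, while all listed Mxi1 transcripts are coding. The coding Mxd3-201 alone stood at 12.8 ± 0.535 TPM in controls, and the lowest control value of Mxi1 was 17.0 TPM. The order and shares below therefore hold for the sums and can differ for coding transcripts. In controls Mxd3 (21.7 TPM) and Mxi1 (20.7 TPM) came first and did not differ beyond their spread, followed by Mxd1 and Mxd4, whose ranges overlapped, and Mnt. In shKmt2f libraries the order was Mxi1, Mxd1, Mxd4, Mxd3 and Mnt, with Mxi1 and Mxd1 overlapping. Of the TPM of these 5 genes together, Mxd3 took 30.7% ± 4.23 in controls and 10.3% ± 1.51 in shKmt2f libraries. Mxd1 took 20.1% ± 2.42 and 29.8% ± 1.32, and Mxi1 28.9% ± 4.19 and 37.6% ± 1.55 (SD, n = 3 and n = 4). The sum itself was 71.3 ± 5.69 TPM in controls and 78.2 ± 7.50 TPM in shKmt2f libraries, with overlapping ranges.

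The MYC genes themselves showed no called change. Mycn (ENSMUSG00000037169, chromosome 12, 12936093 to 12941914, minus strand) stood at 98.9, 109.3 and 126.3 TPM in the controls and at 129.0, 156.1, 121.0 and 119.9 TPM in the shKmt2f libraries. Control library 3 lay above shKmt2f libraries 3 and 4, so the groups overlapped. The mean was 111.5 ± 13.8 against 131.5 ± 16.9 TPM (log2 difference 0.24, SE 0.13, 95% interval -0.06 to 0.53, limma adjusted p = 0.256), and it passed in 0 of 17 alternatives.

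Mycl (ENSMUSG00000028654, chromosome 4, 122995652 to 123002485, plus strand) stood at 85.2, 92.6 and 120.9 TPM in the controls and at 100.6, 116.1, 86.3 and 81.0 TPM in the shKmt2f libraries. These ranges overlapped almost fully (log2 difference -0.05, SE 0.16, 95% interval -0.42 to 0.32, limma adjusted p = 0.866). Myc (ENSMUSG00000022346, chromosome 15, 61985391 to 61990374, plus strand) was much lower, at 1.70, 1.86 and 1.89 TPM in the controls and at 1.26, 1.90, 1.24 and 1.35 TPM in the shKmt2f libraries. Of the latter, 3 lay below every control and library 2 above all of them (log2 difference -0.22, SE 0.15, 95% interval -0.55 to 0.12, limma adjusted p = 0.348). Only 3 of the 8 annotated Myc transcripts were listed.

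Of the TPM of the 3 MYC genes, Mycn took 52.5% ± 1.59 in controls and 57.5% ± 1.46 in shKmt2f libraries, and Mycl 46.6% ± 1.68 and 41.8% ± 1.498. These shares did not overlap between the groups, although the levels of both genes did. Their sum was 212.8 ± 32.6 and 228.9 ± 32.5 TPM, with overlapping ranges. Mycn-202 made up 86.4% ± 1.87 and 85.8% ± 0.939 of the Mycn sum, and Mycl-202 73.5% ± 4.13 and 72.3% ± 1.30 of the Mycl sum.

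Max (ENSMUSG00000059436, chromosome 12, 76937269 to 76962201, minus strand), the partner that all these factors need, stood at 145.7, 114.1 and 106.1 TPM in the controls and at 136.7, 96.9, 131.5 and 121.5 TPM in the shKmt2f libraries. The groups overlapped (log2 difference -0.002, SE 0.16, 95% interval -0.36 to 0.35, limma adjusted p = 0.995). Most of this sum is 1 short transcript: Max-206, of 203 bases and annotated as a target of nonsense-mediated decay, held 74.3% ± 0.484 of it in controls and 72.2% ± 2.04 in shKmt2f libraries. Without it, Max stood at 31.3 ± 4.89 and 33.7 ± 3.89 TPM, below the TPM of Mycn and Mycl in both groups. This remainder still holds Max-204, a processed transcript with no annotated coding sequence, at 12.5 ± 3.02 and 13.0 ± 0.400 TPM.

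**Figure D3:**
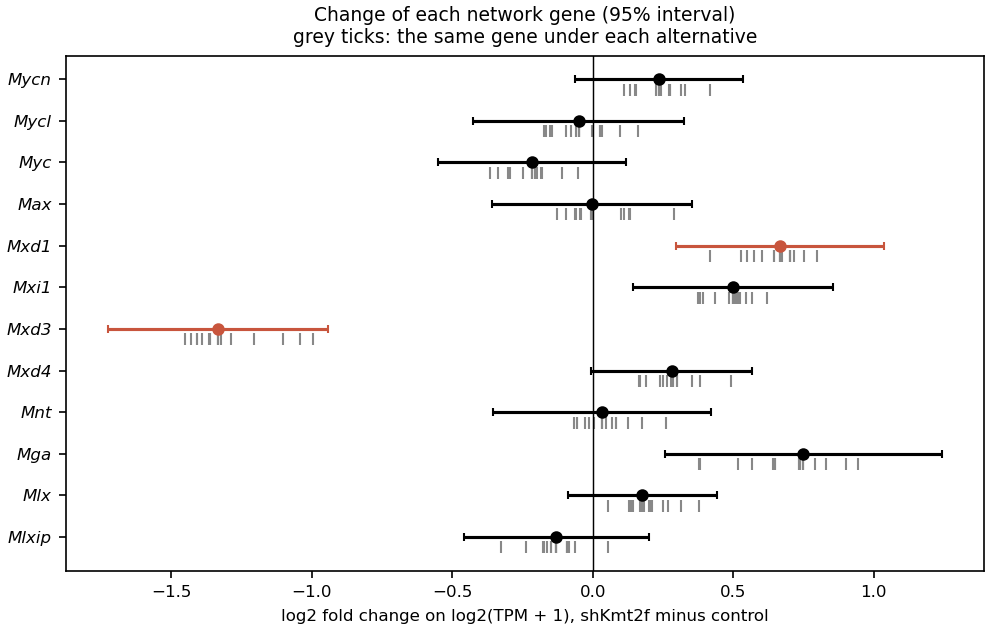
Difference on the log2(TPM + 1) scale, shKmt2f minus control (horizontal axis), for each member; points are the limma estimate with its 95% interval, red where called, and grey ticks are the alternative analyses. Mxd3 stands apart at -1.33 with ticks from -1.45 to -0.99, and the interval of Mxd1 runs from 0.30 to 1.04.

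The remaining dimerising factors of the extended network were measured too. Mga, a large MAX-binding repressor, stood at 2.45, 4.80 and 3.37 TPM in the controls and at 5.30, 8.34, 5.85 and 6.69 TPM in the shKmt2f libraries, with no overlap. Its log2 difference of 0.75 (SE 0.22) had a limma adjusted p of 0.0521. It passed in 2 of 17 alternatives, with median-ratio scaling (0.65, adjusted p = 0.0473) and without control library 2 (0.94, adjusted p = 0.0145). With protein-coding transcripts only the difference was 0.38 (adjusted p = 0.157), and with the GC and length correction 0.38 (adjusted p = 0.131). Mga-201, its only listed coding transcript, stood at 0.866 ± 0.388 and 1.40 ± 0.224 TPM, with overlapping ranges (log2 difference 0.38, limma adjusted p = 0.310). The other Mga transcripts listed have no annotated coding sequence. Mlx, the MAX-like partner of the MondoA and ChREBP factors, stood at 37.9 ± 3.56 and 42.9 ± 3.37 TPM (limma adjusted p = 0.334). Mlxip, which encodes MondoA, stood at 6.65 ± 0.652 and 5.999 ± 0.634 TPM (limma adjusted p = 0.579). Mlxipl had no row in the tables used here.

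Proteins that work with the 2 arms were described by fixed lists. Beside the counts below, 14.1% of all genes tested were called. Of 15 co-activators and partners of MYC, 0 rose and 1 fell, with a median log2 difference of -0.02 against 0.09 for all genes. It was Ruvbl2, a chromatin remodelling ATPase, at 499.1 ± 42.4 and 312.1 ± 24.8 TPM (log2 difference -0.68, limma adjusted p = 0.0129). It was called without any one of the 7 libraries. With the GC and length correction it was not, as 1 of the 15 was then called higher and 0 lower. Of 9 co-repressors of the MXD proteins and MNT, 0 passed limma's test in either direction (median 0.09), and at an unadjusted p under 0.05 it was 3 higher and 0 lower. That looser cut passes more than 14.1% of all genes, by a share not computed here, so this count cannot be read as an excess. The SIN3 scaffold Sin3a stood at 12.8 ± 2.21 and 20.3 ± 4.08 TPM (log2 difference 0.62, limma adjusted p = 0.0583), and the deacetylase Hdac2 at 154.3 ± 54.1 and 228.6 ± 6.46 TPM (0.62, limma adjusted p = 0.0624). Of 16 tested genes of MYC protein turnover, 0 rose and 1 fell (median 0.10), namely Aurka, the mitotic kinase that stabilises MYCN protein (32.2 ± 5.02 and 19.96 ± 4.15 TPM, log2 difference -0.68, limma adjusted p = 0.0481). Aurka was called again only in the analysis without control library 2, of the 7 that leave out a library. With the GC and length correction it was lost, and 1 of the list was called higher and 0 lower. Protein was not measured.

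Of the known target groups of MYC, the lists of ribosome biogenesis and of cell cycle genes held 1 and 0 called genes, and that of nucleotide, folate and polyamine synthesis 4. Over all genes tested, 10.4% were called higher and 3.69% lower, together 14.1%. Of 30 ribosome biogenesis genes, 1 rose and 0 fell (median -0.03), namely Dkc1, the pseudouridine synthase of small nucleolar particles (92.4 ± 19.5 and 134.6 ± 8.97 TPM, log2 difference 0.55, limma adjusted p = 0.0386). Under median-ratio scaling 0 of them were called higher and 1 lower. Without one library the calls ran from 0 to 7 higher, and Dkc1 was called again only without control library 2. Of 25 genes of nucleotide, folate and polyamine synthesis, 1 rose and 3 fell (median -0.10). Odc1, the first enzyme of polyamine synthesis, fell from 179.5 ± 4.18 to 122.9 ± 7.21 TPM (log2 difference -0.54, limma adjusted p = 0.0149). Shmt2, the mitochondrial serine hydroxymethyltransferase, fell from 306.6 ± 35.9 to 192.5 ± 31.9 TPM (-0.68, limma adjusted p = 0.0266), and thymidylate synthase Tyms from 100.01 ± 12.2 to 66.9 ± 10.6 TPM (-0.58, limma adjusted p = 0.0364). Ppat, the first enzyme of purine synthesis, rose from 9.06 ± 3.24 to 15.6 ± 0.904 TPM (0.76, limma adjusted p = 0.0409). Odc1 was called in 6 of the 7 analyses that leave out a library, all but the one without shKmt2f library 1. Shmt2 and Tyms were each called in 2 of the 7 and Ppat in 1, that without control library 2. Under median-ratio scaling 0 of the list were called higher and 3 lower, and with the GC and length correction 0 higher and 2 lower, so that the call of Ppat was lost in both. Of 13 tested cell cycle and translation targets 0 passed limma's test in either direction (median 0.06), and at an unadjusted p under 0.05 it was 1 higher and 4 lower. The share of all genes at that looser cut, which is above 14.1%, was not computed. Under median-ratio scaling 2 of them were called lower, and without one library up to 3 were called higher. The smallest adjusted p values there were those of Eif4ebp1, an inhibitor of cap-dependent translation (log2 difference -0.43, limma adjusted p = 0.0764), and E2f2 (-0.55, limma adjusted p = 0.0980). The cell cycle and translation list pools drivers of the cell cycle with inhibitors of it, so its median and counts do not give one direction.

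**Figure D4:**
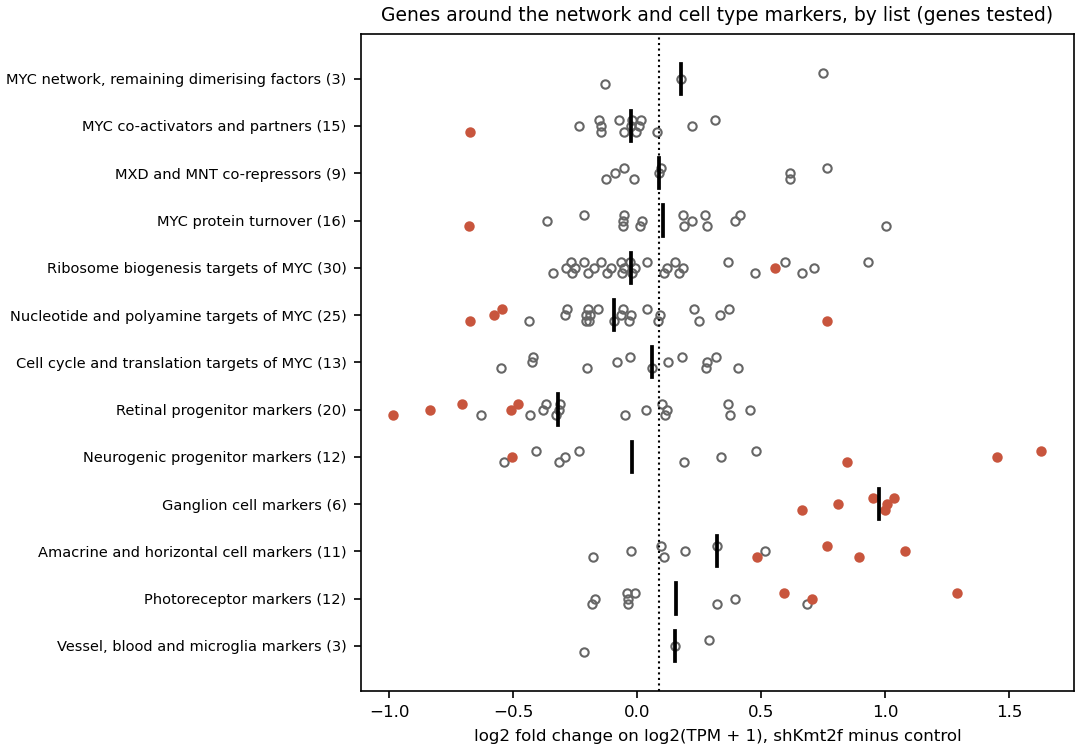
Difference on the log2(TPM + 1) scale, shKmt2f minus control (horizontal axis), of the tested genes of each list (rows); red points passed limma's test, black bars are list medians and the dotted line is the median of all genes (0.09). The row of nucleotide and polyamine targets holds 4 red points of 25, and the other rows of MYC partners and targets hold 1 or 0 each. Over all genes tested 14.1% were called. The median of the progenitor markers lies at -0.32.

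Some cell type markers moved with these changes, where 10.4% of all genes tested were called higher and 3.69% lower. Of 20 retinal progenitor markers, 0 rose and 5 fell: Ccnd1, Hes5, Dapl1, Id1 and Pcna. At an unadjusted p under 0.05, a looser cut for which the share of all genes was not computed, it was 2 higher and 6 lower. With the GC and length correction 1 was called higher and 5 lower. Vim and Nes lay higher in every shKmt2f library than in any control (log2 differences 0.37 and 0.46, limma adjusted p = 0.0524 and 0.159). The summed progenitor level was 1834 to 2391 TPM in controls and 1542 to 1770 TPM in shKmt2f libraries. Of 12 neurogenic progenitor markers, Neurod4, Btg2 and Neurod1 rose and Hes6 fell, with sums of 2026 to 2673 and 2739 to 2994 TPM. Of 12 ganglion cell markers 6 were high enough to test and all 6 rose (sums 18.8 to 28.2 and 45.1 to 51.6 TPM). Of 11 tested amacrine and horizontal cell markers 4 rose (204 to 253 and 281 to 325 TPM), as did 3 of 12 tested photoreceptor markers (658 to 701 and 903 to 1127 TPM). Without one library, Ccnd1, Hes5, Neurod4, Btg2, Neurod1 and the photoreceptor gene Prdm1 were called in 7 of 7 analyses, while Id1 and Pcna were called in 0 of 7 and the ganglion cell calls ran from 0 to 6. The amacrine and horizontal cell rises then ran from 0 to 5, and the falls among neurogenic markers from 0 to 1. The fall of Hes6 was lost with the GC and length correction, where 4 of the neurogenic list were called higher and 0 lower. Under median-ratio scaling 3 of that list were called higher and 3 lower. The part of these shifts in the differences of Mxd3, Mxd1 and Mxi1-202 was not tested.

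Of the marker lists for other cell types, that of astrocytes, lens and mesenchyme was low. The lists of vessel, blood and microglia and of pigment epithelium had sums above those of the ganglion cell markers. Of 10 astrocyte, lens and mesenchyme markers, 0 were high enough to test (summed 0.608 to 1.39 and 0.526 to 1.66 TPM). Of 13 vessel, blood and microglia markers 9 were not listed or at 0, 3 were tested and 0 passed limma's test, also at an unadjusted p under 0.05 (62.6 to 106.0 and 73.9 to 110.3 TPM). Of 9 pigment epithelium markers 4 were not listed or at 0, and Dct was the one that rose (sums 68.3 to 95.4 and 79.0 to 122.3 TPM). The call of Dct was lost under median-ratio scaling, where 0 of this list were called.

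The genes whose levels most resembled those of Mycn and Mxi1, the highest-level members of their arms over all libraries, were taken by Pearson's r of log2(TPM + 1) over the 7 libraries among 11306 protein-coding genes. For Mycn these were Grb10 (r = 0.993), Haus5 (0.992) and Ipo9 (0.990), and for Mxi1 Hsd17b12 (0.989), Rnf103 (0.988) and Pygo1 (0.988). With 7 libraries that share their groups and their scaling, values of this size are a description of the libraries alone.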

How the data were processed

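Transcript levels were measured in 7 libraries, made per the labels' protocols from 1 ng of RNA of sorted cells with SMART-Seq v4 and a Nextera DNA Flex kit. Per the submitters' processing notes, the authors used Salmon 0.11.3 and sleuth 0.30.0 with the build GRCm38.p6, and deposited one table of TPM per library. The deposited p-value and q-value columns and the authors' effect column were the same in all 7 tables and hold the authors' own comparison. The effect was taken as a natural log from its ratio to the log of the deposited TPM means. Of 55475 transcripts, 71 had no TPM and were left out. TPM keeps no depth, so precision is known only from the spread between libraries.

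TPM was summed per gene name (16138 genes). A gene or transcript was tested if 3 or more libraries reached 1 TPM. The model was limma 3.58.1 (R 4.3.3) for log2(TPM + 1) with 1 term, the group, trended and robust moderation, and adjustment by Benjamini-Hochberg. The exact two-sided permutation test ran over 35 splits (pseudocount 0.1 for single transcripts). On simulated data for the 12452 genes, the limma step recovered 64% of genes changed by 1 and 96% of those changed by 2 on the log2 scale. The changed genes all had a mean log2(TPM + 1) above 2, which Myc and Mnt do not reach, and the noise was drawn separately for each gene. Positions, lengths, GC content and coding sequences are from GENCODE M21, and promoter windows from RefSeq.

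The members and gene lists were chosen with earlier results of these data known. Named genes are the members, Mga, Mlx, Mlxip, Mlxipl and Setd1a, up to 4 called members of each list by smallest adjusted p, or up to 2 where none passed, and the 3 most similar genes of Mycn and Mxi1. Prelid1 was added for its overlap with Mxd3, and some marker genes are named beyond 4. Alternatives were median-ratio scaling, a pseudocount of 0.1, no filter, a filter of 5 TPM, corrections for GC content and for GC content and length (loess, span 0.3), the replicate number as a block, limma without trend and robust estimation, leaving out each library, protein-coding transcripts only and a length-weighted sum.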

Additional observations from a re-analysis of the deposited data

Results flagged for a closer look

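In 3 of 42 groups of 4 shKmt2f libraries examined, 1 library stood apart from the other 3, with its gap to the nearest divided by the whole range above Dixon's critical value. Chance gives about 1 in 20 such groups for separate, normally spread values, but gene sums and their transcripts share values, so the groups are not separate. For the summed level of Myc the ratio was 0.839: shKmt2f library 2 stood at 1.90 TPM and the others at 1.24 to 1.35 TPM. For Myc-202 it was 1.0, since shKmt2f library 2 had 0.754 TPM and the other 3 were listed at 0, which fixes the ratio. Myc-202 is part of the Myc sum, so these flags are not separate. For Mycn-203, a processed transcript, it was 0.890: shKmt2f library 3 stood at 2.76 TPM and the others at 4.07 to 4.23 TPM. The Myc sum and Mycn-203 were not called between the groups, and Myc-202 was too low to be tested.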

How the results depend on the processing

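Mxd3 passed in all 17 alternatives. Of the single log2 differences of members, of Mga, Mlx and Mlxip and of the 7 named transcripts, recomputed under each alternative, 260 kept their direction and side of the threshold, 21 no longer passed, 10 newly passed and 16 turned sign. Those that turned sign were never called. Mycl was 0.026 with the replicate block, 0.16 with the GC correction, 0.034 with the GC and length correction, and -0.15 to 0.097 without one library, positive without shKmt2f library 4 or control library 3. Max was 0.13 with the GC correction, 0.29 with the GC and length correction, 0.11 with protein-coding transcripts only, and -0.095 to 0.13 without one library, positive without shKmt2f library 2 or control library 1. Mnt was -0.0556 with median-ratio scaling, -0.0563 with the length-weighted sum, and -0.0651 to 0.17 without one library, negative without control library 1 or 2 or shKmt2f library 2. Mlxip was 0.053 with the GC correction. The cause was not tested.

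Genes called numbered 1754, against 1084 with the GC correction and 283 to 3003 without one library, the highest without control library 2. Members called numbered 2, against 1 with the replicate block, 3 with the GC correction, the GC and length correction or protein-coding transcripts only, and 1 to 3 without one library, the highest without control library 2. Transcripts of members called numbered 2, against 1 with a pseudocount of 0.1, 1 with no filter, 1 with the GC correction, 1 with the GC and length correction, 1 with limma without trend and robust estimation, 0 with the replicate block, 3 with median-ratio scaling or the filter of 5 TPM, and 1 to 3 without one library, the highest without control library 2. Called genes of the lists numbered 30, against 9 to 51 without one library. With the replicate block, the call of Mxd1 was lost too (adjusted p = 0.0682). Same-numbered libraries showed little joint deviation (r = 0.0798, 0.0653 and 0.0598 across genes), and not every library correlated best with its own number. These deviations are from means of 3 and 4 libraries, so they cannot exclude a shared origin of same-numbered libraries. The labels do not say what the number stands for. The block leaves shKmt2f library 4, which has no control of its number, without weight in the estimates. Under the filter of 5 TPM, Myc and Mnt were not tested.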
